A study of Mus musculus with 7 samples.

Results

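Etv1 Bace2 Grik3 nuclei were a small set of glutamatergic neurons in tissue microdissected from the mouse posterolateral cortical amygdala (plCoA), picked by the unique molecular identifiers (UMIs) of a few genes. A nucleus was a barcode with at least 1000 genes and at most 30000 UMIs, and it was glutamatergic if it held at least 2 UMIs of Slc17a7 and Slc17a6 together and at most 1 of Gad1 and Gad2. Members had in addition at least 2 UMIs of Etv1, at least 5 of Etv1, Bace2 and Met together, and at least 2 of Grik3. This rule took 227 of 16248 glutamatergic nuclei (1.40%), out of 51115 nuclei in all, and the remaining 16021 glutamatergic nuclei were the reference. The anterior (aplCoA) and posterior (pplCoA) domains were each represented by 3 replicates, in 7 libraries, because aplCoA replicate 1 had 2. All animals were untreated wild-type C57BL6J males, 8 weeks old, held in sensory deprivation before sacrifice, and a replicate was a pool of microdissected tissue from several mice, so the spread between replicates is a spread between pools. Where the nuclei lay within the dissected tissue was not analysed here, and members may come from regions that border the plCoA. From atlas images of Etv1 expression, the study placed its own Etv1 glutamatergic subtype outside plCoA, in the posterior basomedial amygdala. Whether the members match that subtype was not tested.

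Etv1 encodes a transcription factor of the ETS family, Grik3 a subunit of kainate-type glutamate receptors, Bace2 an aspartyl protease related to the secretase Bace1, and Met the receptor tyrosine kinase for hepatocyte growth factor. In the mm10 build these genes lie at chr12:38779380-38870484 (Etv1), chr4:125490700-125714173 (Grik3), chr16:97356742-97442936 (Bace2) and chr6:17463800-17573980 (Met), all on the plus strand. Glutamatergic neurons of the cortical amygdala receive odor input from the olfactory bulb and load their vesicles with glutamate through VGluT1 (Slc17a7) or VGluT2 (Slc17a6). In cerebral cortex Etv1 is a familiar marker of deep-layer projection neurons.

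The libraries held between 50812605 and 129624583 UMIs. Pairs of libraries shared 5 to 37 barcodes, and 0 members had a barcode in common with another member. Members had a median of 14763 UMIs and other glutamatergic nuclei 13574. By replicate the medians were 17300 and 12657 in aplCoA replicate 1, 19310 and 12800 in aplCoA replicate 3, 17607 and 15172 in pplCoA replicate 1, 14202.5 and 14065.5 in pplCoA replicate 2, and 12152 and 12581 in pplCoA replicate 3, and the other glutamatergic nuclei of aplCoA replicate 2, which had no member, stood at 15525.5. The share marked as doublets was 7.93% of members (18 nuclei) and 11.5% of the others.

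The 4 genes of the rule are described here without a test, because they chose the members. Levels are given in CPM, the UMIs of a gene scaled to a common total of all UMIs summed over the nuclei of a replicate. The 4 replicates with at least 10 members are always listed in the order aplCoA replicate 1, pplCoA replicate 1, pplCoA replicate 2 and pplCoA replicate 3. Etv1 stood at 444, 451, 494 and 542 CPM in members, with a mean of 21.0 ± 4.05 CPM (SD, n = 4) in the others. Grik3 stood at 462, 456, 609 and 419 CPM, with 24.5 ± 2.17 CPM (SD, n = 4) in the others. In the 9 members of aplCoA replicate 3 Etv1 was 370 CPM and Grik3 314 CPM, below the other 4 replicates. Bace2 varied more, at 28.1, 20.9, 68.6 and 47.9 CPM, and so did Met, at 35.2, 31.9, 97.4 and 66.9 CPM. In the others Bace2 averaged 1.22 ± 0.137 CPM and Met 3.34 ± 2.91 CPM (SD, n = 4). The median member had 7 UMIs of Etv1 and 6 of Grik3, but 0 of Bace2 and 0 of Met. Only 126 members (55.5%) held any UMI of Bace2 or Met, 47 held both, and the other 101 passed the limit of 5 UMIs with Etv1 alone. At levels this low a count of 0 does not show that a nucleus lacked the gene, so the Bace2 part of the name could not be checked nucleus by nucleus.

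Other genes were compared on both sides of the rule's edges, as a description. The 40 members with exactly 5 UMIs of Etv1, Bace2 and Met had 825 CPM of Nell1, 2529 CPM of Galntl6 and 15.0 CPM of Grik1, and the 52 nuclei left out with 4 such UMIs had 915, 2950 and 21.6 CPM. On the Grik3 side, the 27 members with 2 UMIs had 627 CPM of Nell1 and 2083 CPM of Galntl6, and the 19 nuclei left out with 1 UMI had 361 and 1489 CPM. At the first edge these 3 genes were at similar levels on both sides, although Trpm3 was 544 CPM inside and 216 CPM outside. At the Grik3 edge Nell1 and Galntl6 were lower outside, as was Bmpr1b (60.1 CPM, and 154 CPM inside), and Trpm3 was 1040.5 CPM outside and 489 CPM inside. Having Etv1 was not enough for this profile. The 958 other glutamatergic nuclei with at least 2 UMIs of Etv1 had 223 CPM of Nell1, 785 CPM of Galntl6 and 382 CPM of Grik1.

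To ask how the nuclei were divided between the domains, members were counted per replicate. In aplCoA they made up 1.11% (58 of 5224), 0% (0 of 1216) and 0.325% (9 of 2766) of glutamatergic nuclei in replicates 1, 2 and 3. The 0 in aplCoA replicate 2 allows a share of up to 0.303% by the exact 95% binomial interval. In pplCoA the shares were 1.55% (49 of 3166), 2.29% (46 of 2010) and 3.48% (65 of 1866), and the exact 95% binomial intervals of aplCoA replicate 1 (0.844 to 1.43%) and pplCoA replicate 1 (1.15 to 2.04%) overlapped. These intervals and limits cover counting error only. Every pplCoA replicate lay above every aplCoA replicate, with means of 2.44 ± 0.977% and 0.479 ± 0.571% (SD, n = 3 each). The difference of 1.96 percentage points had p = 0.1 in a two-sided exact permutation test, the smallest p that 3 against 3 replicates can give.

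Since the rule counts UMIs, the shares were also taken at a common depth. With every glutamatergic nucleus thinned to 5000 UMIs, and 434 shallower nuclei left out, the shares fell to 0.115%, 0% and 0.0325% in aplCoA and to 0.0765%, 0.440% and 0.802% in pplCoA. aplCoA replicate 1 then lay above pplCoA replicate 1, and the difference was 0.390 percentage points (exact permutation test, two-sided, p = 0.2). Among nuclei of at least 10000 UMIs the domains did not overlap (0.596 ± 0.697% and 2.71 ± 1.07%, SD, n = 3 each). The plot of shares by replicate shows both the full and the thinned counts. A share cannot tell more members from fewer other glutamatergic nuclei, and a difference between the domains in how much bordering tissue was dissected cannot be told apart from a difference within plCoA. As a share of all nuclei members made up 0.152% in aplCoA and 0.829% in pplCoA.

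**Figure D1:**
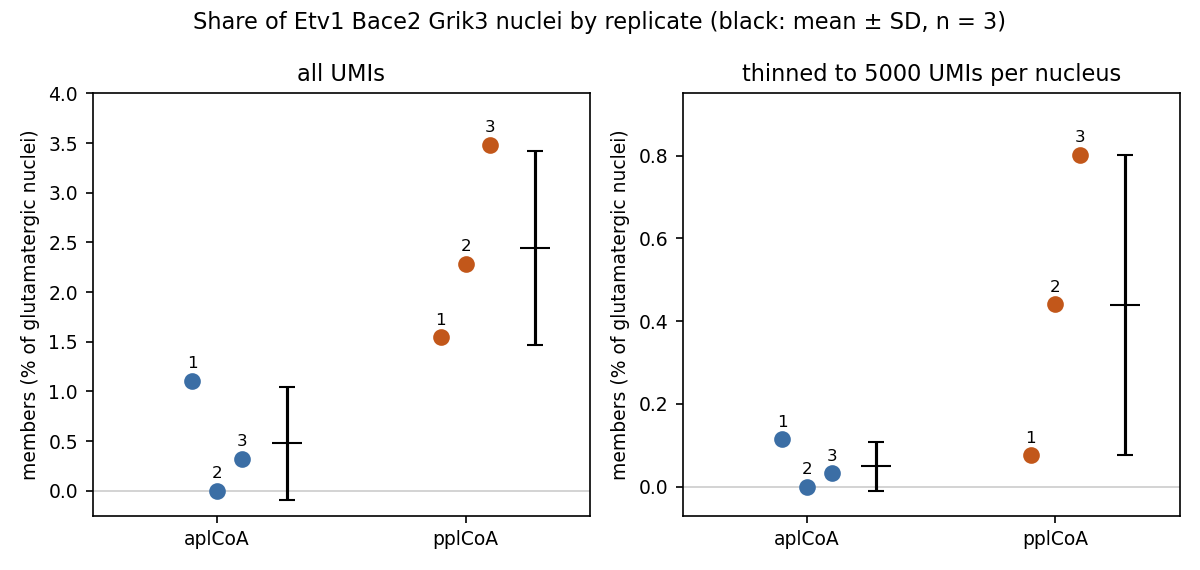
Members as a percentage of glutamatergic nuclei (y axis) in each replicate of aplCoA and pplCoA, with replicate numbers beside the points and mean ± SD in black; the left panel uses all UMIs and the right panel nuclei thinned to 5000 UMIs. The pplCoA replicates all lie above the aplCoA replicates on the left (1.55 to 3.48% against 0 to 1.11%). On the right pplCoA replicate 1 (0.0765%) falls below aplCoA replicate 1 (0.115%), on few members in either.

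Members resembled each other in genes the rule did not use. When all glutamatergic nuclei were placed by 30 principal components of 2000 variable genes, without the genes of the rule, 51.5% of the 15 nearest neighbours of a member were members, whereas members were 1.40% of the nuclei. By replicate this share was 46.6% and 36.3% in aplCoA replicates 1 and 3 and 45.0%, 63.3% and 54.5% in pplCoA (mean 49.1 ± 10.2%, SD, n = 5). Of the neighbours that were members, 67.1% came from another replicate, and the share to be had if replicates mixed freely was not computed. Clusters of the same space divided the members unevenly. Of 27 clusters, the first held 165 members among 327 nuclei, the second held 44 members among 1415 nuclei, and the remaining 18 members were spread over 12 clusters with 1 to 4 each.

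The 2 groups of members had the rule's Etv1 and Grik3 in common, but not Bace2 and Met. A UMI of Bace2 or Met was found in 119 of 165 members of the first cluster (72.1%) and in 2 of 44 members of the second (4.55%). Summed over nuclei, Etv1 was 503 CPM in the first group and 448 CPM in the second, Grik3 547 and 380 CPM, Bace2 57.7 and 2.22 CPM, and Met 77.9 and 1.11 CPM. All other glutamatergic nuclei had 1.21 CPM of Bace2, so the Bace2 part of the name did not describe the second group. The second group had a median of 20739 UMIs per nucleus and the first 13269. Their proportions differed between replicates. The first cluster held 36 of 58 members in aplCoA replicate 1, 3 of 9 in aplCoA replicate 3, and 26 of 49, 43 of 46 and 57 of 65 in pplCoA replicates 1, 2 and 3, and the second held 13, 5, 19, 3 and 4.

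Genes outside the rule also set the 2 groups apart, which is a description only, since these genes made the clusters. Genes with at least 50 CPM in either group were ordered by the log2 ratio of the groups with 20 CPM added to each, so that genes near 0 do not lead. In this order Meis2, a homeobox transcription factor, was furthest toward the first cluster, at 784 CPM against 5.55 CPM. It was followed by Adarb2 (724 and 21.1 CPM), Luzp2 (1203 and 74.4 CPM), Tenm3, a teneurin adhesion protein (776 and 42.2 CPM), and Vwc2l (235 and 0 CPM). Bmpr1b, a receptor for bone morphogenetic proteins, was also among the 10 genes furthest to that side (418 and 24.4 CPM). In the same order the second group was led by Pcdh15, a protocadherin (26.0 CPM in the first group and 1243 CPM in the second), Gpc6, a glypican (22.2 and 637 CPM), and Cdh18, a cadherin (83.6 and 1274 CPM). These differences were present within both replicates that had more than 10 members in each cluster. Meis2 was 817 and 14.7 CPM in aplCoA replicate 1 and 875 and 2.52 CPM in pplCoA replicate 1, and Pcdh15 was 23.9 and 1821 CPM in the former and 32.1 and 1120 CPM in the latter.

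Some features were shared by both groups of members and set them apart from the mean of all others. Nell1 was 1240 CPM in the first group and 669 CPM in the second, against 111 CPM over all other glutamatergic nuclei. Grik1 was 17.7 and 4.44 CPM against 330 CPM, and Trpm3 was 238 and 172 CPM against 2808 CPM. In part these levels belonged to the second cluster as a whole, whose 1371 nuclei outside the rule had 49.5 CPM of Grik1 and 164 CPM of Neto2. In other genes its members stood apart from it. The same 1371 nuclei outside the rule had 202 CPM of Nell1, 312 CPM of Galntl6 and 980 CPM of Trpm3, whereas its members had 669, 1199 and 172 CPM. In the first cluster, the 162 nuclei outside the rule had 1065 CPM of Nell1, 3137 CPM of Galntl6, 639 CPM of Meis2 and 26.0 CPM of Grik1. Its members had 1240, 5663, 784 and 17.7 CPM, so Galntl6 in particular was lower outside the rule. The map of the 2 clusters shows these levels side by side.

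**Figure D2:**
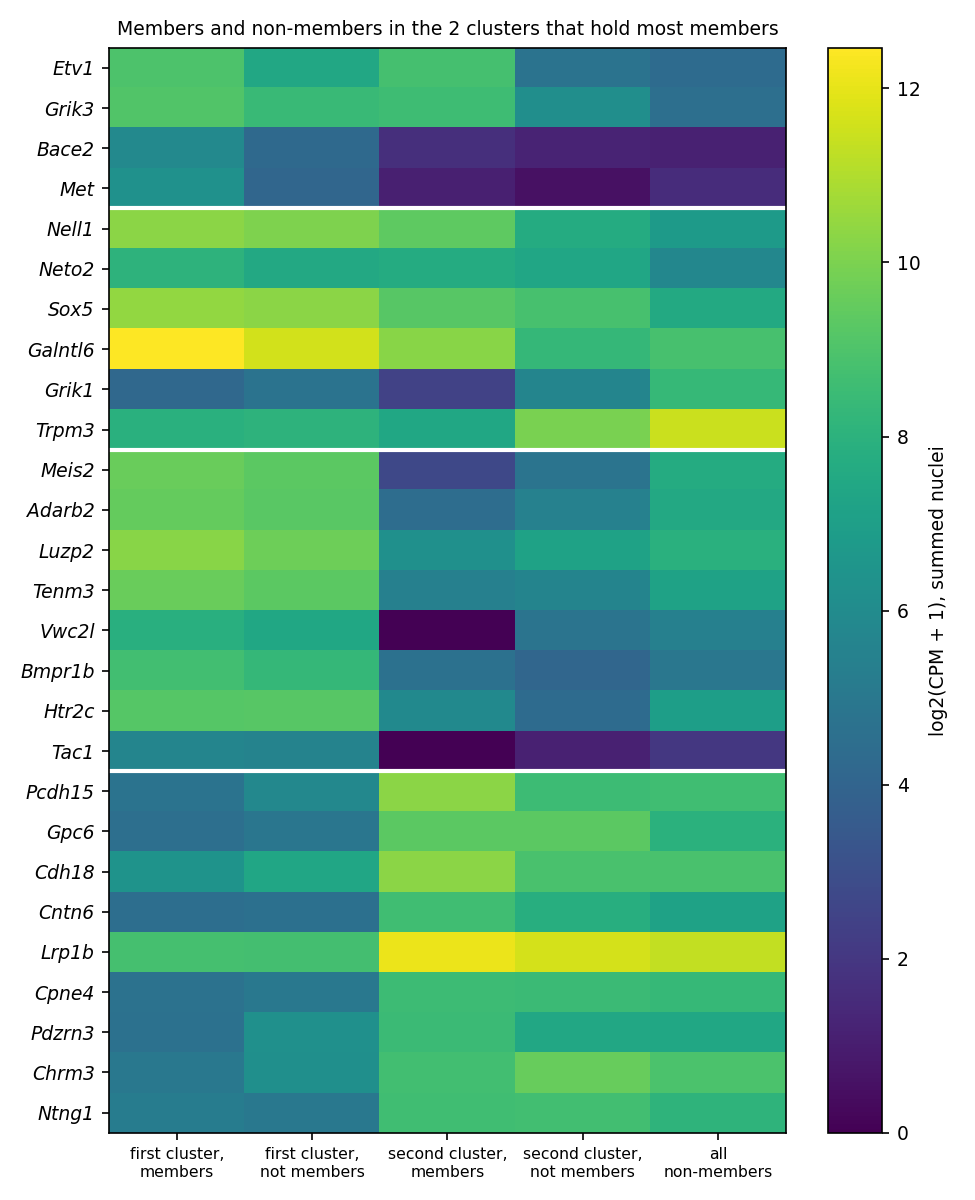
Heat map of log2(CPM + 1), summed over nuclei, for 27 genes (rows) in members and non-members of the first and second cluster and in all non-members (columns); white lines part the rule's genes, genes that differ between members and all non-members, genes high in the first cluster and genes high in the second. Members of the second cluster share Etv1, Grik3, Nell1 and low Grik1 with those of the first, but have little Bace2, Met, Meis2 and Tac1 and more Pcdh15 and Gpc6.

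To ask which genes set the members apart, UMIs were summed over members and over other glutamatergic nuclei within each of the 4 replicates with at least 10 members, and the sums were fitted by the quasi-likelihood method of edgeR with the replicate as a block. A gene was called higher or lower at a Benjamini-Hochberg adjusted p under 0.01 and a change of at least 1.5-fold. Of 10338 genes tested, none of them from the rule, 418 were higher in members (4.04%) and 639 lower (6.18%), and the median log2 difference over all genes was -0.01. Replicates of members and of the others did not overlap for 20.9% of all genes (11.6% with members above and 9.29% with members below), so lack of overlap alone says little. In each case members are compared with a mixture of all other glutamatergic types, not with one of them.

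The 15 largest increases lay between 2.82 and 4.57 on the log2 scale, and Grp was the first of them. Grp, Tac1, Calb2, Hs3st2, Fbn2, Rxfp1, Sema3e and Fbn1 passed the filter on the share of nuclei only through members. Grp, for instance, was seen in 20.6% of members and 1.11% of the others. Being frequent in members let these genes into the test, so their adjusted p-values are not independent of that choice. With no filter on share they kept their call. For Grp, gastrin-releasing peptide, members had 20.1, 12.1, 34.3 and 17.8 CPM in the 4 replicates, where the others had 0.445 to 1.86 CPM. Its log2 difference was 4.57 ± 0.43 (SE; edgeR quasi-likelihood test, Benjamini-Hochberg adjusted p = 1.15e-05), on only 11 to 25 UMIs per replicate. Tac1, the precursor of substance P, was at 42.2, 16.5, 32.9 and 49.0 CPM against 1.51 to 4.78 CPM (log2 difference 3.65 ± 0.27 SE, edgeR adjusted p = 1.92e-06). Bmpr1b was at 314, 205, 431 and 289 CPM against 14.2 to 39.0 CPM (log2 difference 3.86 ± 0.21 SE, edgeR adjusted p = 1.49e-07). All members' replicates lay well above all replicates of the others for these 3 genes. Calb2, the calcium-binding protein calretinin, rose by 3.60 on the log2 scale, Rxfp1, a relaxin receptor, by 3.21, and Sema3e, a secreted semaphorin, by 3.13.

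Galntl6 and Nell1 were also among the 15. Galntl6, which belongs to the family of enzymes that start O-linked glycans, had 3704, 3856, 5238 and 4430 CPM in members and 380 to 465 CPM in the others (log2 difference 3.28 ± 0.10 SE, edgeR adjusted p = 2.32e-09). Its gene lies at chr8:57774052-58912640 on the minus strand of mm10. Nell1, a secreted protein, had 1111, 834, 1266 and 920 CPM against 50.6 to 144 CPM (log2 difference 3.62 ± 0.22 SE, edgeR adjusted p = 4.54e-07). Nell1os rose as well (3.14 ± 0.19 SE), but it is annotated on the opposite strand of Nell1, and whether the counting kept the strands apart is not given in the sources used here. Hs3st2, a heparan sulfate sulfotransferase (3.41), and Fbn2 and Fbn1, both fibrillins (3.27 and 2.82), were also among the 15. The remaining genes were Mpped1 (3.24), Gulp1, an adaptor of phagocytic receptors (3.08), and Zfp385b, a zinc finger protein (2.85). In aplCoA replicate 3, which had 9 members and took no part in the fit, Nell1 was 828 CPM and Galntl6 2001 CPM in members, but Tac1, Fbn1 and Fbn2 had 0 UMIs there.

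Of the 10 largest decreases, Grik1, Smoc2, Glis3, Exph5, Ephb1, Bfsp2, Igfbp5 and Ptchd4 passed the filter on the share of nuclei only through the others. Being frequent in the others let them into the test, so their adjusted p-values are not independent of that choice. With no filter on share they kept their call. The kainate receptor subunit Grik1 was seen in 8.72% of members and 48.8% of the others. It had 8.04, 35.2, 4.12 and 8.91 CPM in members and 354, 400, 135 and 149 CPM in the others, a log2 difference of -4.30 ± 0.22 (SE; edgeR adjusted p = 1.23e-07). Members were far below the others in each replicate, although both levels differed between replicates. Trpm3, a cation channel, had 191, 468, 41.2 and 287 CPM against 2177 to 3379 CPM (log2 difference -3.68 ± 0.37 SE, edgeR adjusted p = 1.96e-05), and its level in members spanned a wide range. Ephb1, an ephrin receptor, was at 4.02, 4.40, 2.74 and 2.23 CPM in members and 22.0 to 51.8 CPM in the others (log2 difference -3.45 ± 0.23 SE). The rest were Smoc2, a matrix protein (-4.13), Glis3, a transcription factor (-3.95), Exph5 (-3.90), Ankfn1 (-3.49), Bfsp2 (-3.36), Igfbp5, a binding protein of insulin-like growth factors (-3.34), and Ptchd4 (-3.32). In members Smoc2, Exph5, Bfsp2 and Igfbp5 each had 0 UMIs in at least 1 replicate, so their log2 differences depend on the prior count of the fit. Of the 15 increases, 5 were not seen in members of the second cluster, where Bmpr1b (24.4 CPM, against 29.6 CPM in all others), Calb2 (0 and 2.86), Tac1 (0 and 3.09), Gulp1 (15.5 and 23.8) and Fbn1 (3.33 and 5.43) were no higher than in other glutamatergic nuclei. Of the 25 genes named here, 24 kept their call under each of the 18 alternatives that tested them, the exception being Bfsp2 without the replicate block. Grp, Tac1, Calb2, Hs3st2, Fbn2, Rxfp1, Sema3e and Fbn1 were not tested where the filter used the share of all nuclei.

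**Figure D3:**
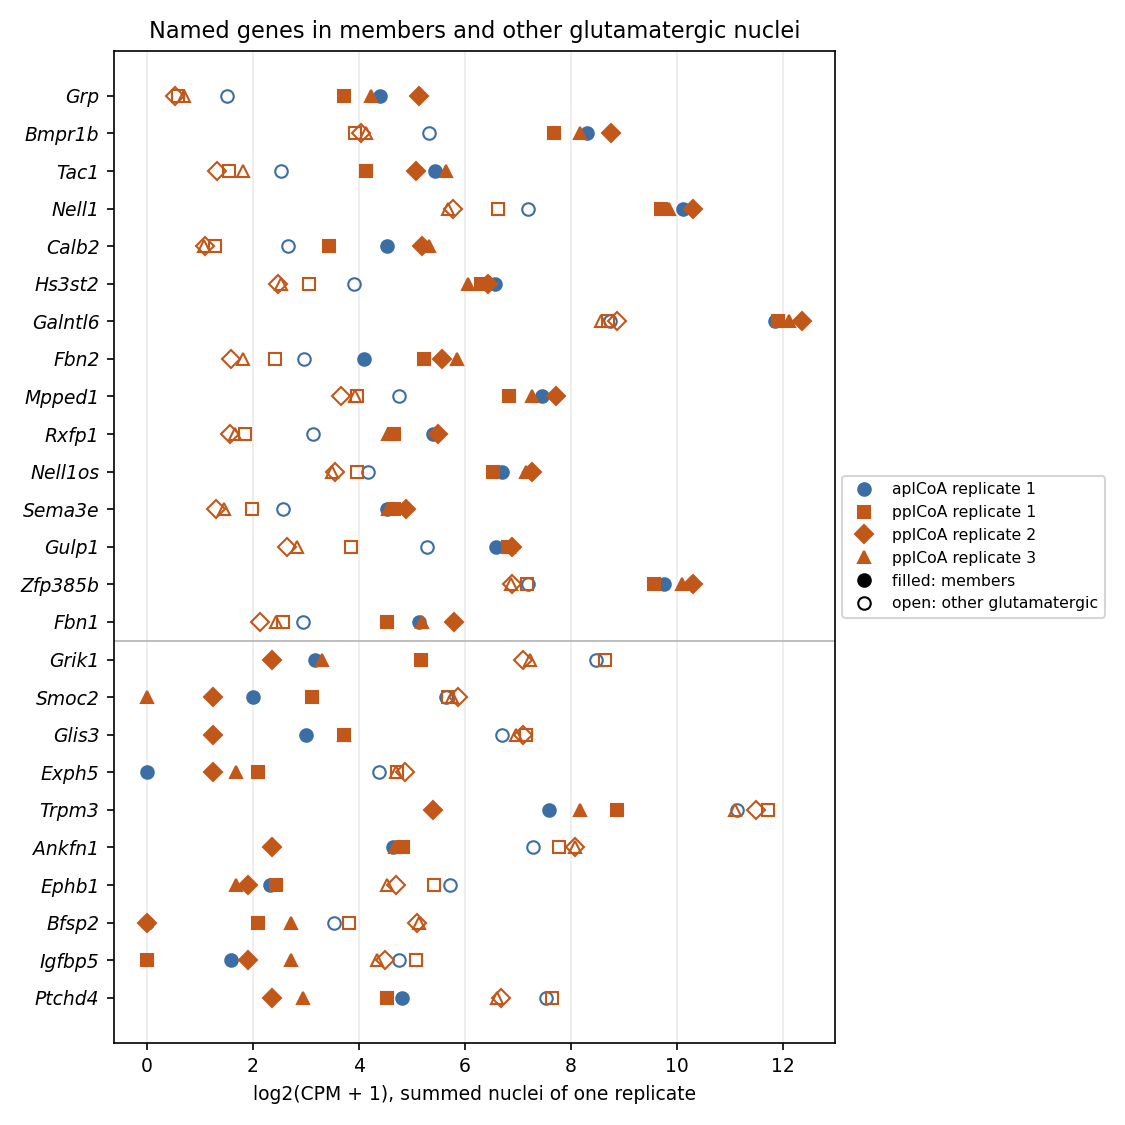
Levels of the 15 genes with the largest increase (above the line) and the 10 with the largest decrease in members (below it), as log2(CPM + 1) on the x axis, with filled symbols for members, open symbols for other glutamatergic nuclei, and shape and color for the replicate. Filled and open symbols do not overlap for any of the 25 genes, and they were chosen as the largest changes.

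The genes that follow came from lists for pathways and cell classes. The same filter on share let in any gene frequent enough on either side. For list genes that passed through members alone or the others alone, adjusted p-values are again not independent of that choice. Among kainate receptors and their auxiliary Neto proteins, outside Grik3, 2 of 6 genes were higher, 2 lower and 2 not called (median log2 difference -0.12). Among all genes tested, 4.04% were higher and 6.18% lower. Neto2, an auxiliary subunit of kainate receptors, had 223, 211, 303 and 235 CPM in members against 50.4 to 60.8 CPM in the others (log2 difference 2.08 ± 0.11 SE, edgeR adjusted p = 9.74e-08). Grik2 had 774, 1076, 513 and 772 CPM against 1441 to 1663 CPM and fell by 1.11 on the log2 scale, less than Grik1. Neto1 (-0.01) and Grik5 (-0.24) were not called. Grik4 was called higher (1.05), but lost the call without pplCoA replicate 1, without pplCoA replicate 3 and without the block. The decrease in Grik2 was not seen in members of the second cluster (1834 CPM, and 446 CPM in those of the first, against 1581 CPM in all others), whereas both groups of members were lower in Grik1 and higher in Neto2 (262 and 202 CPM, against 53.9 CPM).

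Of 16 AMPA and NMDA receptor genes 14 were not called, and over all genes tested 10.2% were called in either direction (median of the list log2 difference 0.11), Grin3a was higher (0.74, 220 ± 47.7 against 125 ± 5.17 CPM, SD, n = 4, but 88.8 CPM in members of the second cluster) and Shisa6, an AMPA receptor auxiliary protein, lower (-2.31, 23.4 ± 9.34 against 114 ± 48.5 CPM, SD, n = 4). Of 6 metabotropic receptors, Grm8 was higher, with 661, 835, 925 and 467 CPM against 113 to 174 CPM (log2 difference 2.33 ± 0.18 SE, edgeR adjusted p = 3.34e-06). Grm3 was called lower (-0.66), a call that 9 alternatives ended, and the other 4 were not called. Of 12 GABA-A receptor subunits 1 was higher, 5 were lower and 6 were not called (median log2 difference -0.41). Gabrg3 was the subunit that rose, at 901, 1218, 1036 and 813 CPM in members and 216 to 512 CPM in the others (log2 difference 1.60 ± 0.16 SE). Gabrd, which marks extrasynaptic receptors, fell by 2.12 and Gabrb2 by 1.48 on the log2 scale, and both kept their call under each alternative, unlike Gabrg1 (-0.94).

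Potassium channel genes were mixed, with 4 of 33 higher, 8 lower and 21 not called (median log2 difference -0.14). Over all genes tested 4.04% were called higher and 6.18% lower. Kcng1, a silent subunit (1.14), and Kcnd3, an A-type channel (0.79), were higher under each alternative. Kcnc2, a channel of fast-spiking cells, had 63.3, 93.5, 19.2 and 29.0 CPM in members against 160 to 201 CPM and fell by 1.92 on the log2 scale. The channel-interacting proteins Kcnip4 (-1.59) and Kcnip2 (-1.20) were lower as well. Of 20 sodium, calcium and HCN channel genes 16 were not called, 3 were lower (Cacna1a, Cacna2d3 and Cacna2d2, each a call that some alternatives ended), and Cacna1g, a T-type calcium channel, was higher, with 42.2, 50.6, 64.5 and 59.1 CPM against 9.06 to 23.6 CPM (log2 difference 1.93 ± 0.26 SE). The median of that list was -0.13.

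Among receptors for modulatory transmitters, Htr2c and Chrna7 were higher and Tacr1 lower in members under each alternative. Of 39 neuropeptide and peptide receptor genes 15 passed the filter on expression, of which Tac1 was higher and Tacr1, the receptor of substance P, and Oprd1, an opioid receptor, lower (median log2 difference 0.15). Tacr1 had 7.03, 2.20, 4.12 and 4.46 CPM in members against 18.4 to 30.7 CPM (log2 difference -2.47 ± 0.28 SE, edgeR adjusted p = 5.32e-05), so the peptide precursor and its receptor differed in opposite directions. Oprd1 fell by 1.71 on the log2 scale, a call that 5 alternatives ended. Of 11 monoamine and acetylcholine receptors, 3 were higher, 1 lower and 7 not called (median -0.01). For both lists, the shares over all genes tested were 4.04% higher and 6.18% lower. Htr2c, a serotonin receptor, had 436, 341, 473 and 457 CPM against 46.8 to 204 CPM (log2 difference 2.38 ± 0.28 SE, edgeR adjusted p = 6.35e-05), mostly from the first cluster (582 CPM, and 58.9 CPM in the second). Chrna7, a nicotinic receptor subunit, rose by 1.15, with 117 CPM in the first cluster, 30.0 CPM in the second and 39.1 CPM in all others. Htr1f (0.88) and the muscarinic receptor Chrm3 (-1.88) lost their call without the replicate block. Htr1f also lost it among members with a UMI of Bace2 or Met, where its log2 difference was 0.06. Chrm3 was 30.9 CPM in members of the first cluster and 412 CPM in those of the second, against 496 CPM in all others. In aplCoA replicate 3 it was 583 CPM in members and 612 CPM in the others.

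Transcription factors of projection neurons moved in both directions, with 5 of 26 higher, 5 lower and 16 not called (median log2 difference -0.24). The shares over all genes tested were 4.04% higher and 6.18% lower. Sox5, a factor of deep-layer cortical neurons, had 1042, 1041, 1460 and 1164 CPM in members against 175 to 270 CPM (log2 difference 2.39 ± 0.11 SE, edgeR adjusted p = 8.30e-08). Meis2 (1.75), Lmo4 (1.36) and Zeb2 (1.12) rose too, and these 4 calls held under each alternative. Meis2 was 784 CPM in members of the first cluster and 5.55 CPM in those of the second, where all other glutamatergic nuclei had 200.4 CPM, and in aplCoA replicate 3 it was lower in members (81.6 CPM) than in the others (203 CPM). Tshz3 (-1.45), Tshz2 (-1.37), Zfpm2 (-0.66), Mef2c (-0.61) and Lmo3 (-0.61) were lower, each with at least 1 alternative that ended the call. Bcl11b (0.40), Tbr1 (0.37) and Tle4 (0.57) were not called.

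Of 7 markers of deep cortical layers 3 were higher, 2 lower and 2 not called (median 0.28). For this list and the 2 that follow, the shares over all genes tested were 4.04% higher and 6.18% lower. Deptor, an inhibitor of mTOR, was higher (36.7 CPM in the first cluster and 7.77 CPM in the second, against 9.61 CPM in all others), at 21.1, 23.1, 35.7 and 31.2 CPM against 4.01 to 13.0 CPM (log2 difference 2.01 ± 0.33 SE), and so were Parm1 (0.98) and Hs3st4 (0.85), although all 3 calls ended without pplCoA replicate 3 and those of Parm1 and Hs3st4 under other alternatives too. Hs3st4 was 522 CPM in members and 508 CPM in the others of aplCoA replicate 1, and its members in the first cluster (354 CPM) were not above all others (375 CPM). Crym (-1.55) and Il1rapl2 (-1.90) were lower under each alternative. Of 6 markers of the basolateral amygdala, a neighbouring group of nuclei, Grp and Rspo2, a Wnt agonist (1.64), were higher and Cdh13 (-2.95), Dkk3 (-1.53) and Zbtb20 (-1.18) lower (median -0.69). Rspo2 lost its call under the stricter rule and without pplCoA replicate 1, and Dkk3 under the stricter rule. Cdh13, a cadherin without a cytoplasmic tail, had 93.4, 125, 80.9 and 256 CPM in members against 579 to 1520.0 CPM. The list of genes that mark other glutamatergic types was lower on the whole, with 8 of 15 lower and 2 higher (median -0.73), among them Reln, the secreted protein reelin, with 15.1, 19.8, 15.1 and 25.6 CPM against 107 to 179 CPM (log2 difference -3.00 ± 0.13 SE, edgeR adjusted p = 6.04e-08). That list was chosen with these data known, so its direction is not independent evidence.

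Adhesion and guidance genes included several large differences of both signs. Of 19 cadherins and protocadherins 3 were higher, 7 lower and 9 not called (median log2 difference -0.37). Cdh6 (2.09) and Pcdh19 (1.70) were higher and Cdh20 (-3.14), Cdh12 (-3.10), Pcdh9 (-1.24) and Cdh2 (-0.98) lower under each alternative. Cdh6 was 74.6 CPM in members of the first cluster and 3.33 CPM in those of the second, against 20.7 CPM in all others. Cdh12 had 34.2, 17.6, 16.5 and 16.7 CPM in members and 154 to 187 CPM in the others. Of 36 axon guidance genes 3 were higher, 13 lower and 20 not called (median -0.29). Beside both lists, all genes tested had 4.04% higher and 6.18% lower. Efna5, an ephrin ligand, had 657, 578, 801 and 575 CPM against 104 to 148 CPM (log2 difference 2.30 ± 0.13 SE, edgeR adjusted p = 1.81e-07). In members of the second cluster Efna5 was 177 CPM, near the 145 CPM of all others, and in the first it was 852 CPM. Slit2, a secreted repellent (1.40), and Sema3e were the other genes that rose. Unc5d, a netrin receptor (-1.85), Epha10 (-1.54) and Ephb1 (-3.45) fell under each alternative, and the other 10 decreases each lost their call in at least 1.

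Relatives and partners of Etv1, Met and Bace2 were also listed, and their calls are to be read against the 10.2% over all genes. Among 9 other ETS factors, Elk3 was called lower (-1.08, lost without the block) and the rest were not called, including Etv5 (0.13). Of 8 genes of hepatocyte growth factor signalling, only Gab2, an adaptor protein of receptor tyrosine kinases, was higher (0.87 ± 0.10 SE, 106 ± 20.5 against 55.2 ± 7.48 CPM, SD, n = 4). Hgf itself had 57.3, 62.7, 38.4 and 46.8 CPM in members and 21.7 to 39.5 CPM in the others, and was not called (0.63 ± 0.20 SE, edgeR adjusted p = 0.0476). None of 12 secretase and amyloid precursor genes was called by edgeR's quasi-likelihood test (2 had an unadjusted p under 0.05, and the likelihood ratio test and DESeq2 called 0), Bace1 (0.04) and App (0.05) among them. Calcium-binding proteins were mixed, with 3 of 12 higher, 3 lower (median -0.27), and Necab1 (1.22) beside Calb2 among the increases. None of 6 activity-linked genes was called by the same test (1 had an unadjusted p under 0.05, the likelihood ratio test and DESeq2 called 0, and the median was 0.17).

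**Figure D4:**
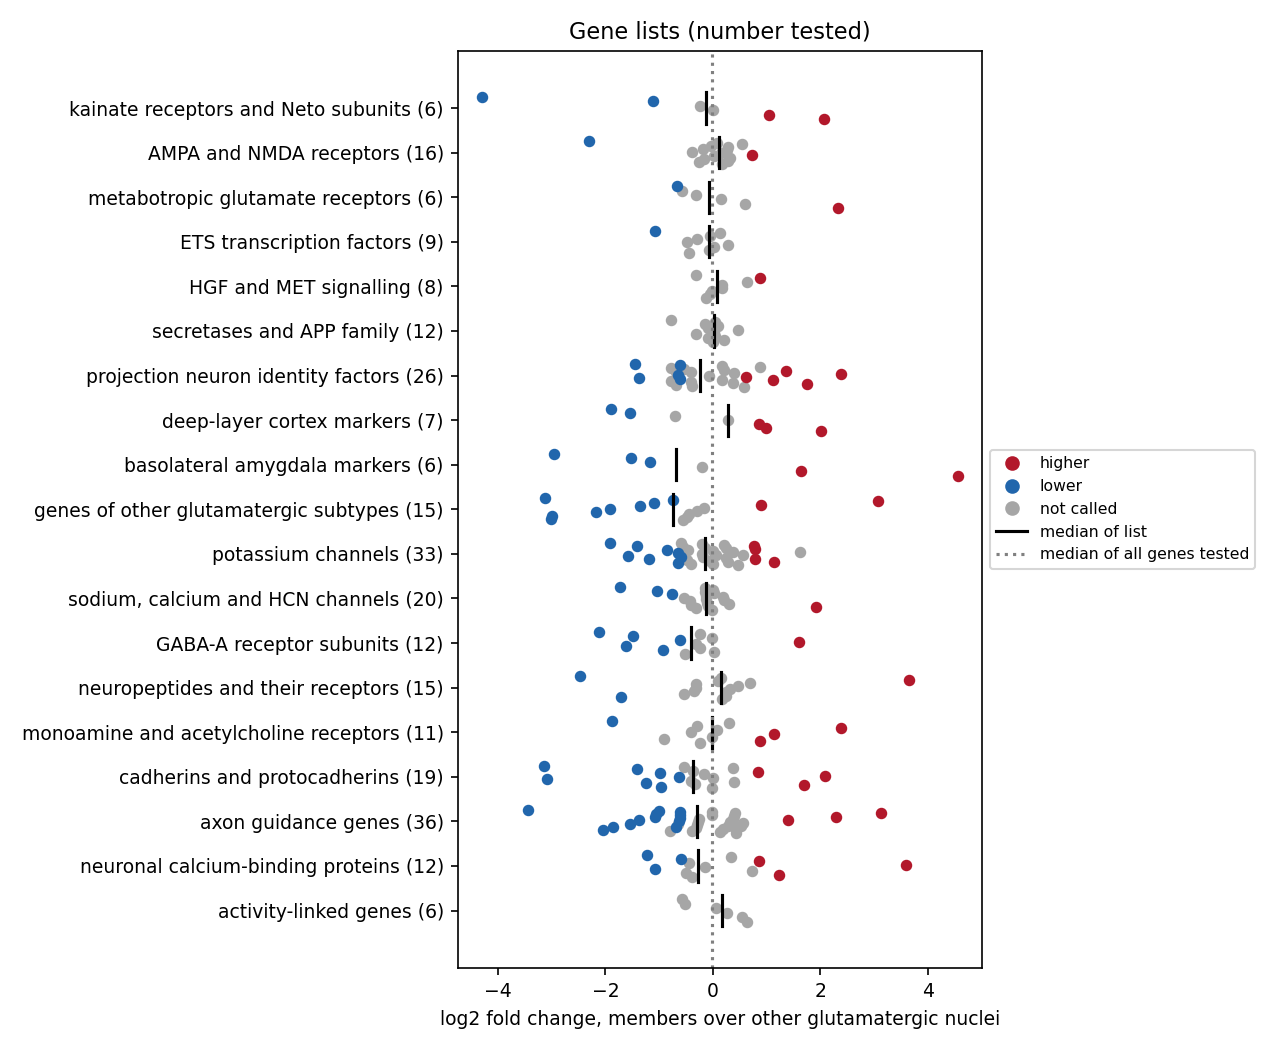
Log2 differences between members and other glutamatergic nuclei (x axis) for every tested gene of 19 lists (rows, number tested in parentheses), red for genes called higher, blue for genes called lower and grey for the rest, with the median of each list in black and that of all genes dotted. Kainate receptor genes lie on both sides of 0 (from -4.30 to 2.08), GABA-A receptors and axon guidance genes lie mostly to the left, and no secretase gene is colored.

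Most markers of other cell classes were too sparse to be tested, and of those tested only Adarb2 was called higher. The summed level of 6 GABAergic markers was 393 to 772 CPM in members and 53.0 to 278 CPM in the others over the 4 replicates. Most of it was Adarb2, a relative of RNA-editing enzymes that also marks a class of interneurons (log2 difference 2.28 ± 0.33 SE, 542, 436, 771 and 392 CPM against 50.9 to 273 CPM). Its call ended without pplCoA replicate 3 and without the block, and it was lower in members of the second cluster (21.1 CPM) and of aplCoA replicate 3 (113 CPM) than in the others there (231 CPM in that replicate, 181 CPM over all). The defining marker Slc32a1, the vesicular GABA transporter, had 2, 1, 1 and 0 UMIs in members, and Dlx2 had 0 in each. In the far more numerous others Dlx2 had only 7, 3, 0 and 1 UMIs, and the rule had already limited Gad1 and Gad2. These low counts therefore could not test for GABAergic identity. Summed levels of the 6 astrocyte, 7 oligodendrocyte, 6 microglial and 8 vascular markers were lower in members than in the others in each of the 4 replicates. Microglial markers, for instance, had 83.4 to 117 CPM in members and 126 to 164 CPM in the others, and their part in the results was not tested.

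The balance of the vesicular transporters was not fixed by the rule, which used their sum. Slc17a7 made up 91.9%, 95.8%, 100% and 99.2% of transporter UMIs in members and 76.6%, 93.1%, 96.5% and 97.1% in the others. This share was higher in members in 4 of 4 replicates, by 5.88 ± 6.29 percentage points (SD), with p = 0.125 in a two-sided exact permutation test of pairs, the smallest p that 4 pairs can give. The level of Slc17a7 itself was not higher in members (227, 226, 259 and 282 CPM, against 230.4, 274, 282 and 316 CPM in the others), and that of Slc17a6 was lower in each replicate (20.1, 9.90, 0 and 2.23 CPM, against 70.4, 20.2, 10.2 and 9.39 CPM). aplCoA replicate 1 stood apart in this measure through the Slc17a6 of its other glutamatergic nuclei, and without it the mean difference was 2.75 percentage points. The summed transporter UMIs of members were therefore almost entirely Slc17a7 in pplCoA and largely so in aplCoA replicate 1, where 20 UMIs of Slc17a6 stood beside 226 of Slc17a7. Members of aplCoA replicate 3, outside the test, had 32 UMIs of Slc17a7 and 0 of Slc17a6. Nuclei were not classed individually by transporter.

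A test of domains within the members was not made, because it was planned only for at least 2 replicates of each domain with at least 10 members, and in aplCoA this number was reached in replicate 1 alone. As a description, members of aplCoA replicate 1 lay within the range of the 3 pplCoA replicates for 18 of the 25 named genes, above it for 2 and below it for 5. In other glutamatergic nuclei aplCoA replicate 1 lay within that range for 5 of the same genes. Over all genes tested it lay within the range for 51.5% in members and 27.8% in the others. The members' values rest on far fewer UMIs, and the part this plays in the width of the range was not tested.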

How the data were processed

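Nuclei of microdissected aplCoA and pplCoA were sorted, and their RNA was counted with a 3' droplet assay. The authors aligned reads to mm10 with Cell Ranger (5.0.0 in the submitters' processing notes, 4 in the header of the deposited matrices), intronic reads included, and deposited raw UMI counts for every gene and every barcode, before any filter or scaling. Intronic reads favour long genes, so levels are compared between nuclei and not between genes. The members and the gene lists were chosen with earlier results of these data known.

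From the counts, nuclei and members were taken by the stated rule. Doublets were kept, and Scrublet in scanpy 1.11.5 marked the highest scores up to 1% per 1000 nuclei for an alternative. Clusters were made by the Leiden algorithm at resolution 1.0. Genes seen in at least 10% of nuclei of either side were tested with edgeR 4.0.16 in R 4.3.3 (TMM, replicate as a block, since members and others of a replicate share their libraries), with adjusted p-values over all genes tested. Simulated data with 4 replicates and known changes were used to test the fit: 100% of genes changed by 2 on the log2 scale and 64% of those changed by 1 were called. The changed genes were all above 20 CPM and raised in members. All genes had the same dispersion, and replicates did not differ. These percentages therefore do not apply to lower or more variable genes. Named genes were the 15 called genes with the largest increase and the 10 with the largest decrease, at 20 CPM or more on the higher side and with the same direction in every replicate, Gm and Rik symbols left out, and the genes of the lists, apart from a few that are not reported here. Alternatives were other filters on nuclei and genes, a stricter rule, thinning, other tests, each replicate left out, and fits without the block. A gene that a filter left untested under an alternative counted as having kept its call there. Spatial, tracing, imaging and behavioural data of the study were not analysed here.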

Additional observations from a re-analysis of the deposited data

How the results depend on the processing

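The difference in share, the difference in transporter balance and the log2 differences of the 122 called genes that are named or in the lists changed direction under none of the alternatives run for them. The difference in share between domains lay between 1.44 and 2.41 percentage points with 1 replicate left out, and its exact permutation p lay between 0.1 and 0.2. With replicate numbers as a block p was 0.25, the smallest that 3 pairs allow. Nothing in the labels ties the pools of a number together, and the deviations of same-numbered replicates from their domain means correlated at 0.0266, -0.0896 and 0.117 across genes, so the numbers were not taken as pairs. The difference was 1.32 percentage points under a stricter rule (at least 3, 7 and 3 UMIs). In alternatives chosen after seeing the data it was 1.30 for members with a UMI of Bace2 or Met and 1.74 for members of the first cluster. The share of members among neighbours lay between 45.6 and 52.3% with 1 replicate left out, and was 39.8% under the stricter rule.

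The number of genes called (1057) was 1830 at an adjusted p under 0.05 with no fold limit, and 677 to 1021 with 1 replicate left out. The 677, with 311 higher and 366 lower, were reached without pplCoA replicate 3, which had the most members, and 646 of them were among the 1057. Without the replicate block 734 genes were called, 730 of them among the 1057. DESeq2 called 1019 genes and the likelihood ratio test 1243. The share of higher genes among the calls was 39.5% as reported and lay between 33.4% without a filter on expression and 45.9% without pplCoA replicate 3. Of 122 called genes that are named or in the lists, 66 kept their call under each of the 18 alternatives that tested them. The setting at an adjusted p under 0.05 with no fold limit could end no call. The settings that ended most calls were the fit without the block (38 genes) and that without pplCoA replicate 3 (34 genes). The alternatives planned for the test of domains within members, and for the test of whether a domain difference was particular to them, were not run, because neither test was made. Depth limits what can be said of low genes: Grp, for example, rested on 72 UMIs in 4 replicates of members.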
